A study of Mus musculus with 24 samples.

Results

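The genes described here are 39 genes of DNA replication and of the transition from G1 to S phase, taken by name from the 53801 genes listed with a value, and all 39 were found. Before S phase, the origin recognition complex, CDC6 and CDT1 load the ring of MCM2 to MCM7 onto origins of replication, and CDC7 with its partner DBF4 and the cyclin-dependent kinases then turn this ring into the active helicase together with CDC45 and the GINS complex. At the fork, primase and polymerase alpha start each strand, the polymerases delta and epsilon extend it on the sliding clamp PCNA, which the RFC complex loads, and FEN1 and LIG1 join the fragments of the lagging strand. Many of these genes are transcribed by E2F factors once the cyclin-dependent kinases inactivate the RB proteins, so their transcripts are commonly read as a sign of cells that enter the cycle.

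Pancreatic stellate cells (PSC) are the resident mesenchymal cells of the pancreas, which take on features of myofibroblasts on activation and in culture. They came from wild-type C57BL/6J mice of 7 to 10 weeks, with 4 to 10 pancreata pooled per isolation, and were used at passage 1 to 2. KPC cells, used up to passage 15, are 1 line of pancreatic cancer cells derived from 1 mouse in which p48-Cre acts in the pancreas. PSC on a membrane with 1 µm pores were cultured without KPC cells (control) or with them for 24 h or 72 h, KPC cells lying at the bottom of the well in standard co-culture and on the underside of the membrane in inverse co-culture. The 2 models, 2 cultures and 2 times gave 8 groups of 3 libraries, all of wild-type PSC. KPC cells and PSC coexisted for up to 96 h in the inverse and 72 h in the standard model. Libraries were made from 120 ng of RNA in the inverse and 450 ng in the standard model. Standard PSC were seeded in a medium with more serum and changed to the final medium when the time count began. Inverse PSC were seeded in the final medium before that, with no later change. Model, coexistence time, medium and RNA input therefore cannot be told apart. Libraries carry replicate numbers 1 to 3, and whether each number was a separate isolation is not given in the sources used here, so that p-values measure the spread between these libraries only.

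Values are FPKM, the fragments of a gene per kilobase of its length, scaled to the fragments counted in the library. The libraries held between 15932737 and 24798761 counted fragments. The 39 genes rested on very different numbers of them, from 226 to 1890 fragments per library for Mcm2 down to 3 to 66 for Fen1. Of 12 stellate cell and fibroblast markers, 11 exceeded 1 FPKM in all 24 libraries, with Des between 26.2 and 87.8 FPKM, and Gfap, a filament protein also used as a stellate marker, was at or under 0.237 FPKM. Of 10 epithelial markers, Sox9 exceeded 1 FPKM in all 24 libraries and Muc1 in 20, while Krt19 did in 7, Krt8 and Krt18 in 3 each and Krt7 in 2. Epcam, Cdh1, Cldn4 and Cldn7 stayed under 1 FPKM in each library. The sum of the 10 lay at 51.9 FPKM in replicate 2 of the inverse co-culture at 24 h and between 5.09 and 14.2 FPKM in the other libraries.

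E2F factors bind a short element in the promoters of many replication genes, and 4 promoters are shown that carry it. They were picked for the match and so do not stand for the 39 genes. RefSeq promoters of GRCm38.p6, from 250 bases before the start of transcription to 50 after it, were held for 33 of the 39 genes, as 40 promoters. The letters searched on both strands were TTTCCCGC, TTTCGCGC, TTTGCCGC and TTTGGCGC, which can overlap each other, and they stand in capitals. Names, positions in GRCm38.p6 and strands precede the sequences.
Mcm5, chr8:75109259-75109558, plus strand: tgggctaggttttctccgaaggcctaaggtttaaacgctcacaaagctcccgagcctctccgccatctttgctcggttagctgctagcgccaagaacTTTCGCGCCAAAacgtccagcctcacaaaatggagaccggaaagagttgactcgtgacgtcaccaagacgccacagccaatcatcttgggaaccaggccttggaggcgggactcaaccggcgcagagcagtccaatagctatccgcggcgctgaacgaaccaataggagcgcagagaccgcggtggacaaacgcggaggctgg
Mcm6, chr1:128359656-128359955, minus strand: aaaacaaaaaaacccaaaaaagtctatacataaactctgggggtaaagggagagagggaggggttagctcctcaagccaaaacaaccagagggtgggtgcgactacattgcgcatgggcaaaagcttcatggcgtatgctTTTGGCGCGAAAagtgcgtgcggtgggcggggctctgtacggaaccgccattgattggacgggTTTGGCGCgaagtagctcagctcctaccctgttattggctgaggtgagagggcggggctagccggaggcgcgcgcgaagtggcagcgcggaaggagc
Uhrf1, chr17:56304063-56304362, plus strand: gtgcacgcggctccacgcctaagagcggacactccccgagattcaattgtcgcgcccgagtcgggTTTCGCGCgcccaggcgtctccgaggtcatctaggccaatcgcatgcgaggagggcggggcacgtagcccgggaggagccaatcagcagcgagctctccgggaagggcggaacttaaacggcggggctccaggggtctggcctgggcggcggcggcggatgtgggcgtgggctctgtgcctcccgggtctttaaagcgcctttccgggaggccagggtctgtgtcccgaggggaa
Hells, chr19:38930740-38931039, plus strand: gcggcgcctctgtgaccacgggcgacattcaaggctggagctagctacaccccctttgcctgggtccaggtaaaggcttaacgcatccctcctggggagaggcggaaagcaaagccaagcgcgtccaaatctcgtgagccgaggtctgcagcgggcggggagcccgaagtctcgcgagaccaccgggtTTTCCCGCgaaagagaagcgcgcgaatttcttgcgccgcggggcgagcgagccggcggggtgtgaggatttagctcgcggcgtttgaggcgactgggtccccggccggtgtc
The element stood in 13 of the 40 promoters (32.5%) and in 744 of all 32851 promoters of the same length (2.26%). These 13 belonged to Mcm3, Mcm5, Mcm6, Mcm7, Cdc6, Cdt1, Pola1, Pold1, Rfc3, Lig1, E2f2, Uhrf1 and Hells. No match stood in the promoters of Mcm2, Chaf1b, Tyms, Tk1, Dbf4 and Rrm2, whose changes are described further on. In Mcm5 a pair of overlapping matches began 153 and 149 bases before the start, and in Mcm6 a like pair began 110 and 106 bases before it, with a further match at 47 bases. In Uhrf1 the match began 185 bases before the start of 1 of its 2 promoters, and in Hells 62 bases before the start. CCAAT, the element of the factor NF-Y, stood in 20 of the 40 promoters and in 37.4% of all promoters. TTTGAA, the element known from genes of G2 and mitosis, stood in 17.5% and 17.9%. These are matches of letters, and binding was not measured.

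Over the 24 libraries, Rrm1, the large subunit of ribonucleotide reductase, had the highest mean with 91.6 FPKM, followed by Pcna with 72.5 and Rrm2, the small subunit, with 38.2. The helicase subunits Mcm2 to Mcm7 lay between 15.4 and 34.1 FPKM, while Mcm10, which helps the helicase start, was at 3.75. The licensing factor Cdc6 was at 1.72, and E2f2 at 0.638 was the lowest of the 39. Fen1 was at 0.706 FPKM, but 84.2% of its exon bases are shared with the overlapping genes Tmem258 and Gm10143, and fragments were counted without strand, so its level is uncertain. The same holds for Gins2, with 67.3% shared, and for Chaf1a, with 52.5% shared. These levels are per mean transcript length, so genes can be compared with each other only on that scale.

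Before any comparison, the libraries of replicate 1 of the standard model stood apart. Of the 39 genes, replicate 1 was the highest library for 39 in standard co-culture at 24 h, and for 38 in each of the other standard groups. The median ratio of replicate 1 to the mean of replicates 2 and 3 was 2.85 in co-cultured and 3.22 in control PSC at 24 h, and 1.81 and 2.68 at 72 h. In the inverse model the same ratio lay between 0.721 and 1.15. The mean log2(FPKM + 0.5) over the 39 genes was 4.53 and 4.38 in replicate 1 of the standard co-culture and control at 24 h, against 2.51 to 3.31 in the other libraries of these groups. The summed FPKM of 10 macrophage and leukocyte markers was 42.8 and 50.4 in these replicate 1 libraries, 436 and 578 in replicate 2, and 66.4 and 79.4 in replicate 3, and the part of such cells in the levels was not tested. In bulk RNA, fewer cycling cells and less of these transcripts per cell cannot be told apart.

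**Figure D1:**
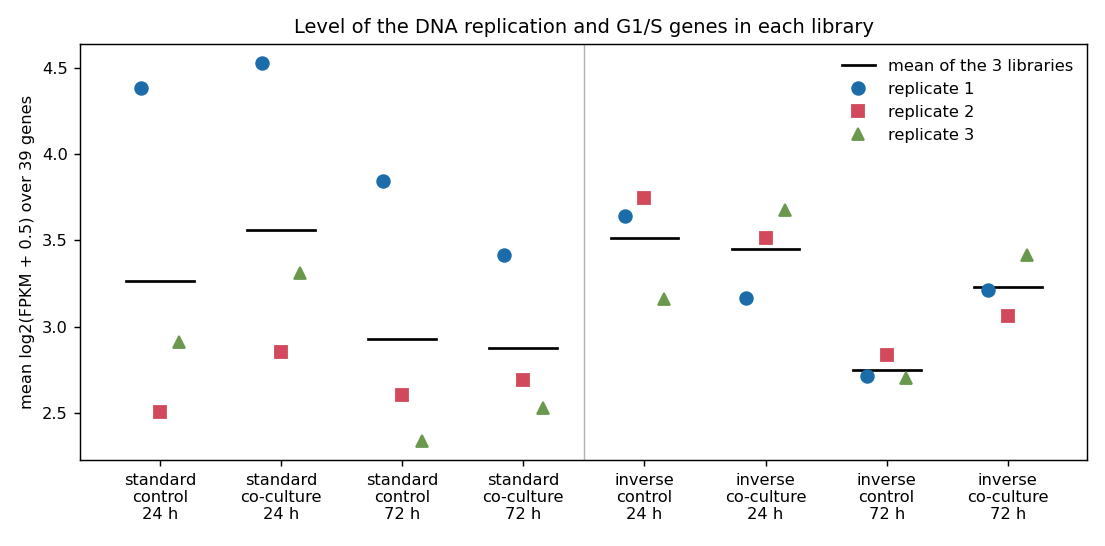
Mean log2(FPKM + 0.5) over the 39 genes (vertical axis) in each of the 24 libraries, by group (horizontal axis), with 1 marker per replicate and a line at the mean of the 3 libraries. Replicate 1 is the highest in each standard group, and in the inverse model the 3 controls at 72 h lie lowest, between 2.70 and 2.84.

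**Figure D2:**
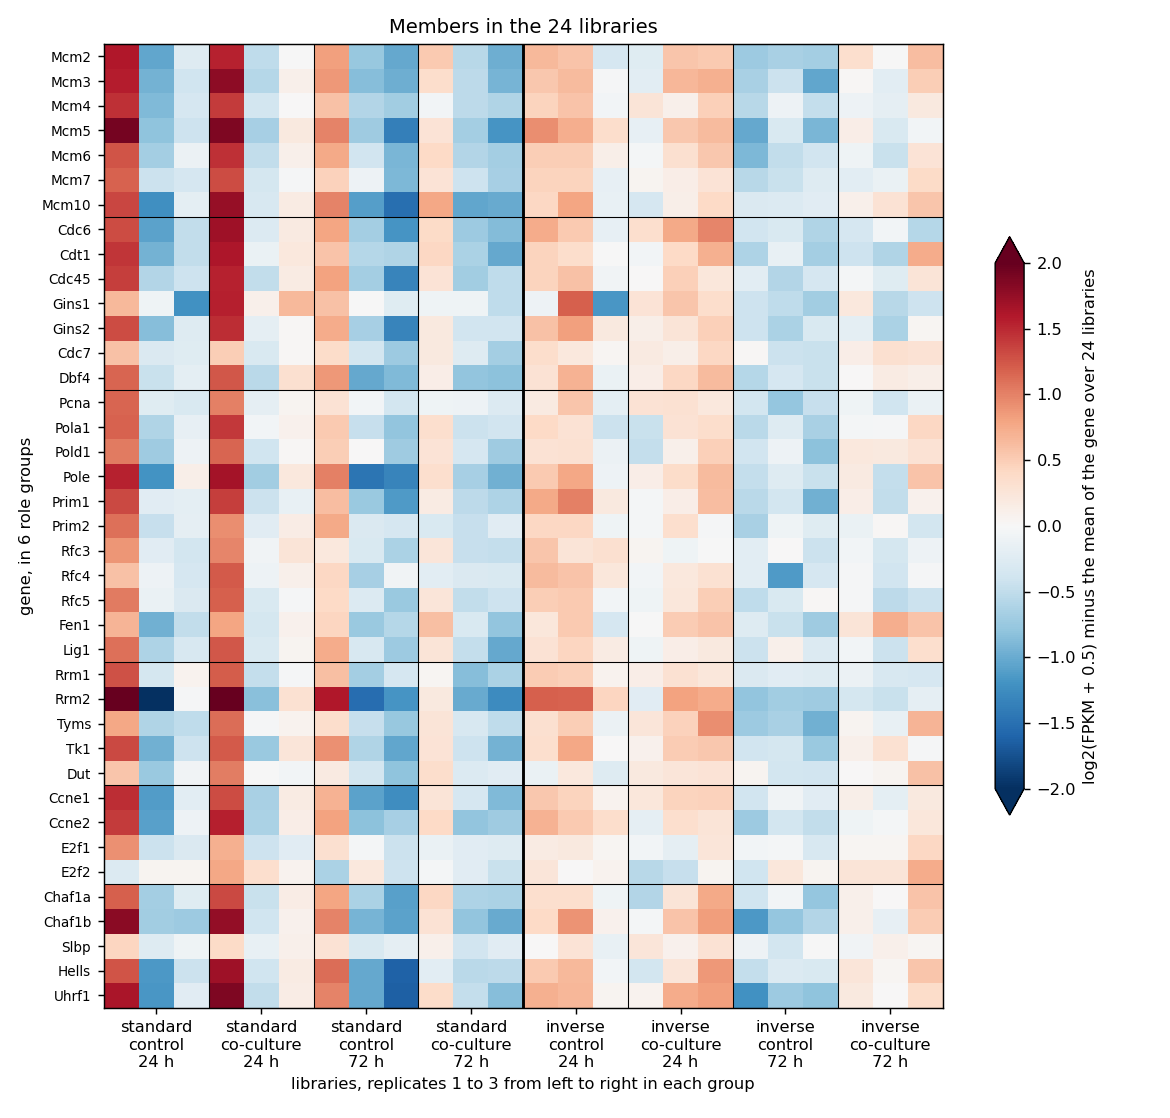
Each of the 39 genes (rows, in 6 role groups) in each of the 24 libraries (columns, replicates 1 to 3 in each group), as log2(FPKM + 0.5) minus the mean of the gene over the 24 libraries, with red above and blue below that mean and the colours limited to 2 in either direction. The columns of standard replicate 1 at 24 h are red for nearly all genes, and Slbp spans the narrowest range, from 15.6 to 27.9 FPKM.

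The helicase subunit Mcm7 had 43.2, 43.5 and 28.3 FPKM in inverse controls at 24 h and 21.5, 23.1 and 26.4 at 72 h. In inverse co-culture it had 33.0, 34.6 and 38.5 FPKM at 24 h and 27.3, 29.0 and 41.7 at 72 h. All 3 controls at 72 h lay below each of the other inverse libraries. In the standard model, Mcm7 had 72.6, 23.4 and 25.1 FPKM in controls at 24 h, 43.8, 29.5 and 16.7 at 72 h, 78.9, 24.6 and 31.2 in co-culture at 24 h, and 38.6, 23.7 and 19.9 at 72 h, and all of these groups overlapped.

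Pcna had 78.1, 101.3 and 60.2 FPKM in inverse controls at 24 h and 53.0, 40.0 and 49.9 at 72 h, and 84.1, 85.4 and 79.6 in co-culture at 24 h and 64.9, 51.9 and 62.7 at 72 h. In both cultures the values at 72 h lay below all values at 24 h. In the standard model it had 155, 57.9 and 55.8 FPKM in controls at 24 h, 84.3, 66.4 and 53.0 at 72 h, 139, 60.8 and 71.6 in co-culture at 24 h and 64.5, 64.2 and 56.8 at 72 h. Rrm1 had 121, 119 and 89.7 FPKM in inverse controls at 24 h and 69.2, 72.4 and 70.8 at 72 h, and 93.4, 105 and 100.2 in co-culture at 24 h and 78.4, 68.4 and 67.2 at 72 h. At 72 h the values of both cultures overlapped. In the standard model Rrm1 had 206, 66.8 and 89.3 FPKM in controls at 24 h, 129, 53.1 and 67.1 at 72 h, 199, 61.3 and 83.3 in co-culture at 24 h and 87.5, 46.9 and 54.5 at 72 h.

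Ccne1, the cyclin that drives entry into S phase, had 28.3, 26.7 and 20.5 FPKM in inverse controls at 24 h and 14.8, 18.4 and 16.5 at 72 h, and 22.7, 26.5 and 26.9 in co-culture at 24 h and 21.1, 16.96 and 22.2 at 72 h. In the standard model it had 54.8, 8.64 and 16.6 FPKM in controls at 24 h, 31.85, 8.96 and 7.90 at 72 h, 48.5, 12.2 and 21.7 in co-culture at 24 h and 23.3, 15.3 and 10.3 at 72 h. Slbp, which binds the stem-loop of histone transcripts, stayed within a narrow range. It had 20.6, 24.9 and 18.5 FPKM in inverse controls at 24 h and 19.1, 15.9 and 20.4 at 72 h, 24.3, 21.8 and 25.1 in co-culture at 24 h and 19.5, 22.1 and 21.1 at 72 h. In the standard model Slbp had 27.9, 17.2 and 19.4 FPKM in controls at 24 h, 25.2, 16.6 and 18.03 at 72 h, 26.9, 18.4 and 22.03 in co-culture at 24 h and 22.1, 15.6 and 17.5 at 72 h.

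The first question was how the controls themselves moved between the time points, since each co-culture is read against them. In inverse controls, 24 of the 37 genes tested fell from 24 h to 72 h and 0 rose (limma, Benjamini-Hochberg adjusted p under 0.05 over 13092 genes). Over all genes tested, 9.05% fell and 1331 genes rose. The median log2 fold change of the 37 genes was -0.72, against 0.04 over all genes tested, and each of the 37 was below 0, where 54.7% of all genes were above 0. For 29 of them the 3 values at 72 h lay below the 3 values at 24 h, which held for 16.9% of all genes tested. E2f2 and Fen1 did not pass the filter, for which 3 or more libraries had to exceed 1 FPKM.

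The largest fall was that of Rrm2, whose protein is made in S phase and limits the supply of deoxynucleotides. It had 62.3, 61.3 and 36.6 FPKM at 24 h and 15.3, 16.5 and 16.2 at 72 h, a log2 fold change of -1.67 (SE 0.19, limma adjusted p 0.00197). The helicase subunit Mcm5 had 24.5, 21.1 and 16.2 FPKM at 24 h and 5.93, 10.05 and 6.48 at 72 h, a log2 fold change of -1.42 (SE 0.22, adjusted p 0.00397). Uhrf1, which recruits the maintenance DNA methyltransferase to hemimethylated DNA, had 17.7, 17.2 and 11.02 FPKM at 24 h and 4.32, 6.21 and 5.87 at 72 h, a log2 fold change of -1.39 (SE 0.21, adjusted p 0.00384). Chaf1b, a subunit of the chromatin assembly factor CAF-1, had 7.52, 10.9 and 5.94 FPKM at 24 h and 2.25, 3.05 and 3.55 at 72 h, a log2 fold change of -1.30 (SE 0.24, adjusted p 0.00823). None of these 4 genes had an overlap between the time points.

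By role, 6 of 7 helicase genes fell, with log2 fold changes from -1.42 for Mcm5 to -0.66 for Mcm7, and Mcm10 with -0.61 (adjusted p 0.120) did not pass. Of the 7 genes of licensing and firing, Gins2, Cdt1, Dbf4 and Cdc45 fell, by 0.98, 0.75, 0.74 and 0.70 on the log2 scale. Cdc6, Gins1 and Cdc7 did not pass, with log2 fold changes of -0.80, -0.52 and -0.48. Of the 10 genes tested among polymerases, clamp, clamp loader and fragment joining, 5 fell, namely the primase subunit Prim1 (-1.28), the clamp loader subunits Rfc4 (-1.03) and Rfc3 (-0.59), the catalytic subunit Pole (-0.80) and Pcna (-0.72). Pola1, Pold1, Prim2, Rfc5 and Lig1 had log2 fold changes between -0.59 and -0.49 and did not pass.

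Of the 5 genes of deoxynucleotide supply, Rrm2, Tyms (-1.01), Tk1 (-0.87) and Rrm1 (-0.62) fell, while Dut, which removes dUTP, had -0.17 (adjusted p 0.492). TYMS makes thymidylate, and TK1 salvages thymidine. Of the 3 regulators tested, both E cyclins fell, Ccne2 by 1.05 and Ccne1 by 0.58 on the log2 scale. E2f1 had -0.28 (adjusted p 0.160). Of the 5 genes of chromatin and histone supply, Hells, a chromatin remodeller needed for DNA methylation, fell by 0.72 beside Uhrf1 and Chaf1b, while Chaf1a (-0.61, adjusted p 0.0869) and Slbp (-0.20, adjusted p 0.360) did not pass.

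Other genes of the pathway, from lists in which the 39 genes do not occur, gave these counts of genes tested in inverse controls. Of all 13092 genes tested there, 1185 fell and 1331 rose, and no list was tested against them. Of 17 other origin and helicase genes, 2 fell, namely Gmnn, the inhibitor of CDT1 (-1.32), and Mtbp (-0.78). Of 20 other fork genes, 5 fell and 1 rose. The checkpoint mediator Clspn fell by 1.13 and Chtf18 by 1.23 on the log2 scale, while Pold4, a small subunit of polymerase delta, rose by 1.79. Of 10 other genes of nucleotide supply, 3 fell, and of 7 other chromatin replication genes, 1 fell. Of 20 other cyclin, kinase and E2F-RB genes, 4 fell, with Ccna2 (-1.40) and E2f7 (-1.08) the largest, and the pocket protein gene Rbl2 rose by 0.62. Of 7 inhibitors of cyclin-dependent kinases, Cdkn1c rose by 0.84 and Cdkn2d fell by 0.72. All 12 genes of a G2 and mitosis list fell, led by Plk1 (-1.81), Ccnb1 (-1.75) and Ccnb2 (-1.74), with a median of -1.37.

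Markers of macrophages moved the other way in the same libraries. Their summed FPKM over 10 genes was 79.1 to 91.9 in inverse controls at 24 h and 139 to 273 at 72 h, and 7 of the 9 tested rose. Lyz2, the main macrophage lysozyme, rose by 1.22 on the log2 scale. Among 11 stellate and fibroblast genes tested, Acta2, Des, Vim and Thy1 fell and Pdgfra and Col3a1 rose. The part of these markers in the falls was not tested. The number of falls was 11 without replicate 2 of the controls at 24 h, 12 without replicate 1 at 24 h, 13 without replicate 3 at 72 h and 14 without replicate 1 at 72 h. Over all genes and both directions, leaving out 1 library gave 1243 to 2369 calls.

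In inverse co-culture, 0 of the 38 genes tested passed between 24 h and 72 h (limma), where 0.00784% of 12758 genes were called. An unadjusted p under 0.05 was reached by 7 of the 38 and by 15.3% of all genes, and limma's voom on fragments also called 0. Their median log2 fold change was -0.29, against -0.06 over all genes, and 9 were above 0, where 41.3% of all genes were. Values at 72 h lay below all values at 24 h for 6 of the 38 and for 13.9% of all genes. Rrm1 (-0.48, SE 0.11, adjusted p 0.154), Pcna (-0.48, SE 0.12, adjusted p 0.162) and Cdc6 (-1.01, SE 0.30, adjusted p 0.207) had the smallest p-values. The values of Cdc6 were 1.93, 2.76 and 3.27 FPKM at 24 h and 1.03, 1.36 and 0.794 at 72 h. Mcm2 stood at 17.1, 30.2 and 29.5 FPKM at 24 h and 25.6, 20.2 and 31.3 at 72 h, a log2 fold change of 0.03 (SE 0.25), where controls had a log2 fold change of -0.98 (SE 0.23, adjusted p 0.0212).

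The second question was how PSC differed with and without KPC cells. In inverse co-culture at 24 h, 0 of 38 genes tested passed against the controls (limma), where 2.47% of 12827 genes did. Their median log2 fold change was -0.05, against -0.06 over all genes, and 14 were above 0, where 37.9% of all genes were. After median-of-ratios scaling the median was 0.01. Voom on fragments called 0 too. Rfc3 alone of the 38 had an unadjusted p under 0.05, which 14.8% of all genes reached. It had 6.47, 5.86 and 6.22 FPKM in co-culture and 9.44, 7.55 and 7.92 in controls, a log2 fold change of -0.39 (SE 0.15, adjusted p 0.262). The values of Rfc3 were all lower in co-culture, as they were for 13.8% of all genes, and so were those of Ccne2, with a log2 fold change of -0.39 (SE 0.19, adjusted p 0.400). Dut had the second smallest p, with a log2 fold change of 0.29 (SE 0.14, adjusted p 0.391).

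In inverse co-culture at 72 h, 6 of the 37 genes tested passed as higher than in the controls of the same time and 0 as lower. Of 13066 genes tested, 3.27% passed as higher and 1251 genes as lower. For this comparison, rose and fell mean higher and lower than in these controls, and not a change over time. The 6 were Uhrf1, Mcm2, Chaf1b, Tyms, Tk1 and Dbf4. The median of the 37 genes was a log2 fold change of 0.45, against -0.16 over all genes, and 36 were above 0, where 31.7% of all genes were. Groups did not overlap, with co-culture higher, for 18 of the 37 genes and for 9.53% of all genes. These controls are the same libraries as in the comparison of controls over time, so both results share them and are not independent of each other.

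Uhrf1 (ENSMUSG00000001228, chr17:56303321-56323486 in GRCm38) had 12.3, 10.7 and 13.8 FPKM in co-culture and 4.32, 6.21 and 5.87 in controls. The log2 fold change was 1.11 (SE 0.18, limma adjusted p 0.0107). Mcm2 (ENSMUSG00000002870, chr6:88883474-88898780) had 25.6, 20.2 and 31.3 FPKM in co-culture and 12.04, 12.7 and 12.5 in controls, means of 25.7 ± 5.54 and 12.4 ± 0.351 (SD, n = 3 libraries). The log2 fold change was 1.00 (SE 0.16, limma adjusted p 0.0110). Chaf1b (ENSMUSG00000022945, chr16:93883901-93906115) had 6.03, 4.91 and 8.12 FPKM against 2.25, 3.05 and 3.55, a log2 fold change of 0.98 (SE 0.24, adjusted p 0.0375). In each of these genes every co-culture library lay above every control.

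Tyms (ENSMUSG00000025747, chr5:30058202-30073617) had 12.02, 10.4 and 18.9 FPKM in co-culture and 6.80, 7.24 and 5.72 in controls, a log2 fold change of 0.97 (SE 0.23, adjusted p 0.0327). Tk1 (ENSMUSG00000025574, chr11:117815526-117826092) had 21.1, 24.2 and 19.3 against 14.8, 15.2 and 11.5 FPKM, a log2 fold change of 0.62 (SE 0.15, adjusted p 0.0349). Dbf4 (ENSMUSG00000002297, chr5:8396973-8422716) had 9.07, 10.2 and 9.89 against 5.91, 7.08 and 6.52 FPKM, a log2 fold change of 0.55 (SE 0.14, adjusted p 0.0410). In these 3 genes, too, each co-culture library lay above each control.

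The next genes by adjusted p were Hells with a log2 fold change of 0.63 (adjusted p 0.0511), Mcm3 with 0.80 (0.0537), Pold1 with 0.67 (0.0556) and Rrm2 with 0.40 (0.0564), and these did not pass. By role, the median log2 fold change was 0.57 for the 7 helicase genes, 0.38 for the 7 of licensing and firing, 0.37 for the 10 tested at the fork, 0.45 for the 5 of deoxynucleotide supply, 0.30 for the 3 regulators and 0.64 for the 5 of chromatin and histone supply. Within single roles the values differed. Rrm1 had 0.01 (SE 0.10) and Rrm2, the other subunit of the same enzyme, 0.40 (SE 0.12). Among the clamp loader genes, Rfc4 had 0.41 (SE 0.27), Rfc3 0.05 (SE 0.18) and Rfc5 -0.06 (SE 0.20), and none of these passed.

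**Figure D3:**
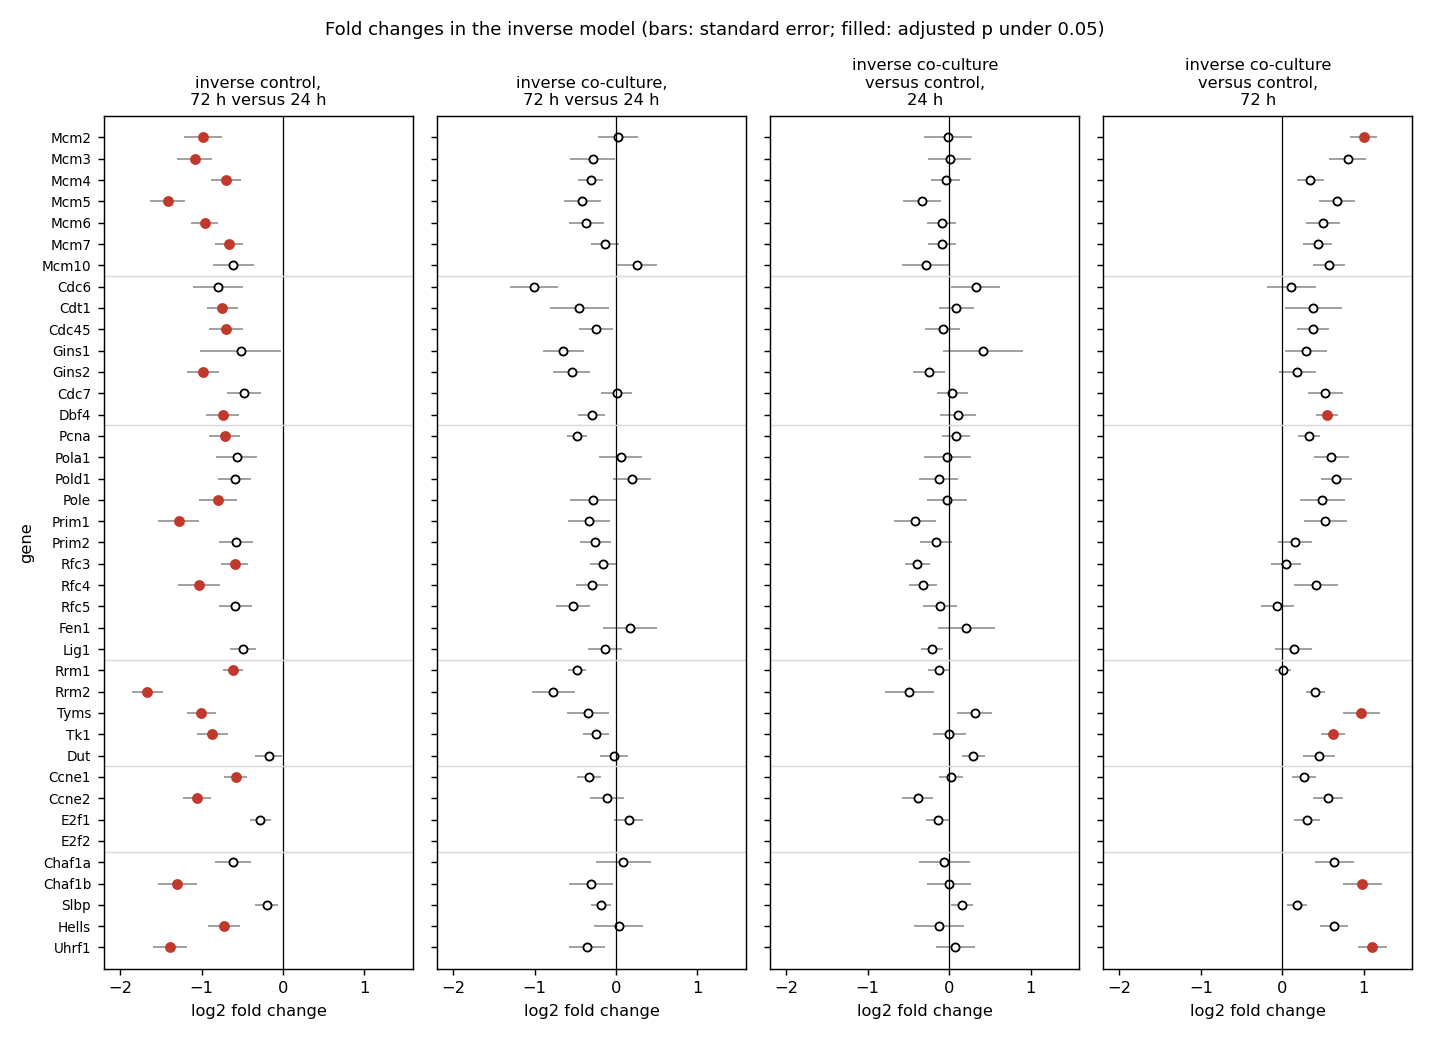
Log2 fold changes on log2(FPKM + 0.5) (horizontal axis) of the 39 genes (vertical axis, grouped by role) in 4 comparisons of the inverse model, with bars for 1 standard error, filled points for an adjusted p under 0.05 and no point where a gene was not tested. The controls over time have 24 filled points below 0, co-culture against control at 72 h has 6 above 0, and the other panels have none.

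**Figure D4:**
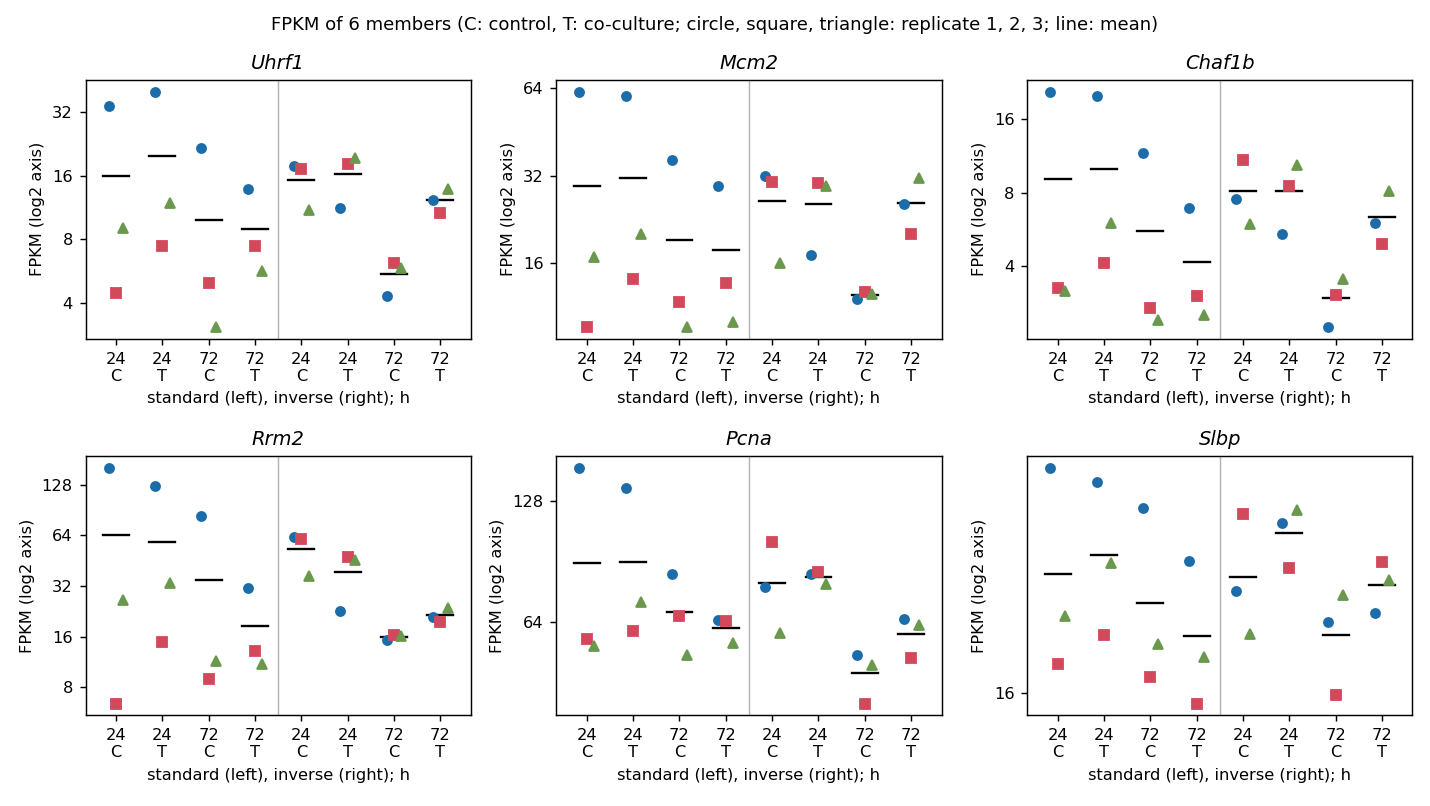
FPKM on a log2 axis of Uhrf1, Mcm2, Chaf1b, Rrm2, Pcna and Slbp in the 24 libraries, by time (24 h or 72 h) and culture (C control, T co-culture), the standard model left and the inverse model right of the grey line, with lines at the means. In Mcm2 the inverse controls at 72 h lie between 12.04 and 12.7 FPKM, below each other inverse library, while replicate 1 (circles) is the highest in the standard groups.

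Of all 13066 genes tested in inverse co-culture at 72 h, 427 were higher than in controls and 1251 lower (limma, adjusted p under 0.05). No list was tested against them. Of the same lists, 7 of the 12 genes of G2 and mitosis were higher in inverse co-culture than in controls at 72 h. The largest were Top2a (1.18), Ccnb1 (1.07) and Mki67 (1.04), and all 12 were above 0. Within inverse co-culture from 24 h to 72 h, the 12 genes had a median of -0.49 with 1 above 0, and 0 passed. Of 20 other cyclin, kinase and E2F-RB genes, 1 rose and 2 fell. Ccna2, the cyclin of S phase and G2, rose by 0.74 on the log2 scale, while the pocket protein genes Rb1 (-0.61) and Rbl2 (-0.52) fell. Rb1 had 17.7, 16.7 and 18.3 FPKM in co-culture and 23.7, 27.3 and 31.0 in controls. Of 20 other fork genes, Clspn rose by 1.01 and Pold4 fell by 2.19. Of 10 other genes of nucleotide supply, Samhd1, which breaks down deoxynucleotides, fell by 0.62. Of 7 kinase inhibitors, Cdkn1c (-1.55) and Cdkn2c (-0.97) fell. None of 17 other origin and helicase genes and none of 7 other chromatin replication genes passed (limma, adjusted p under 0.05), with 5 and 0 at an unadjusted p under 0.05, which 32.2% of all genes reached.

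KPC cells are of epithelial origin, and of 10 epithelial markers 3 were tested in inverse co-culture at 72 h. Krt19 had a log2 fold change of 2.03 (SE 0.40, limma adjusted p 0.0189). It passed the filter only through the co-culture libraries, so this p-value is no independent support for a higher level there. The other two, Sox9 (-0.82, SE 0.26, adjusted p 0.0737) and Muc1 (-0.13, SE 0.32, adjusted p 0.807), did not pass. Krt8 and Krt18 were listed at 0 in all 6 inverse controls. At 72 h of co-culture, Krt8 had 0.919, 0.0880 and 3.14 FPKM, Krt18 0.383, 0 and 1.23, and Krt19 1.83, 1.17 and 3.11, against 0.176, 0.116 and 0 for Krt19 in controls. The sum over 10 epithelial markers was 9.95 to 13.4 FPKM in co-culture and 8.66 to 14.2 in controls. The part of these markers in the differences of the replication genes was not tested. At 24 h, replicate 2 of the co-culture had the most keratin, with 15.2 FPKM of Krt8 and 11.7 of Krt18. Its mean log2 level of the 39 genes was 3.51, between 3.17 and 3.67 in the other libraries of that group. At 72 h of co-culture this level was 3.21, 3.06 and 3.42 in replicates 1, 2 and 3. These libraries ranked in the same order by Krt8, Krt18 and Krt19. Whether keratin and this level are related was not tested.

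The summed macrophage and leukocyte markers were 57.9 to 88.5 FPKM in inverse co-culture at 72 h and 139 to 273 in controls, and 7 of the 9 tested fell. Lyz2 had 59.8, 64.6 and 41.5 FPKM in co-culture and 152, 93.6 and 171.7 in controls. The part of these markers in the differences of the replication genes was not tested. The number of genes that rose was 0 without replicate 1 of the co-culture, 1 without replicate 3 of the controls and 2 without replicate 1 of the controls, and it was 10 after median-of-ratios scaling, which brings the median of all genes close to 0. Over all genes and both directions, leaving out 1 library gave 368 to 1637 calls, and the scaling gave 1401.

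In standard co-culture, no gene passed at either time (limma without a block for the replicate number), and over all genes 0% of 12859 at 24 h and 0% of 12863 at 72 h did. With the block, which takes up the pairing of these libraries by number, 157 genes (1.22%) passed at 24 h and 1 (0.00777%) at 72 h, among them 0 of the replication genes. Of the 37 and 36 replication genes tested, 0 reached an unadjusted p under 0.05 without the block at 24 h and 0 at 72 h, against 2.89% and 6.22% of all genes, and limma's voom on fragments called 0 as well. At 24 h, 34 of 37 were above 0, where 47.5% of all genes were, with a median log2 fold change of 0.26, and at 72 h 13 of 36 were above 0, where 34.5% of all genes were, with a median of -0.09. The median standard error of these genes was 0.63 at 24 h and 0.48 at 72 h, against 0.21 and 0.20 in the inverse model.

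Within pairs of the same replicate number, co-culture at 24 h was higher than control for 24, 32 and 36 of the 37 genes tested in pairs 1, 2 and 3, against 55.6%, 40.5% and 45.8% of all genes tested. In all 3 pairs it was higher for 21 of the 37 and for 17.5% of all genes. The smallest adjusted p of the 37 genes with the block was 0.0908 at 24 h. At 72 h, co-culture was higher for 2, 22 and 28 of the 36 genes tested in pairs 1, 2 and 3. Of all genes tested, 45.9%, 30.5% and 41.9% were. Without replicate 1 in both groups, the median log2 fold change was 0.36 at 24 h, and at 72 h it became 0.11, of the other sign. Gins1, a GINS subunit, had the smallest p at 24 h, with 10.8, 3.65 and 5.55 FPKM in co-culture and 5.59, 3.15 and 1.16 in controls, a log2 fold change of 0.98 (SE 0.57, adjusted p 1). These values overlapped, as did those of Tyms (log2 fold change 0.50, SE 0.48) and Dut (0.41, SE 0.43), the next by p. At 72 h Gins1 (-0.34, SE 0.28), Prim2 (-0.38, SE 0.32) and Dut (0.28, SE 0.29) had the smallest p-values, with adjusted p-values from 0.869 to 0.905.

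Over time, 0 of 36 genes tested passed in standard controls and 0 of 37 in standard co-culture (limma), where 0% of 12963 and 0% of 12805 genes did, and voom called 0 in both. An unadjusted p under 0.05 was reached by 0 of these genes in controls and by 1 in co-culture, against 0.98% and 3.65% of all genes. The median log2 fold change was -0.36 in controls, with 1 of 36 above 0, where 51.3% of all genes were, and -0.68 in co-culture, with 0 of 37 above 0, where 36.2% of all genes were. In controls, pairs 1, 2 and 3 of the same replicate number had 0, 25 and 2 of the 36 genes higher at 72 h. Of all genes, 52.5%, 53.8% and 43.6% were. Lower in all 3 pairs were 10 of the 36 genes and 14.6% of all genes. In controls Prim1 (-0.72, SE 0.62), Rrm1 (-0.47, SE 0.50) and Rfc5 (-0.41, SE 0.45) had the smallest p-values, all with an adjusted p of 1.00. These fits left out the pairing by number. With the replicate block, the smallest adjusted p (limma) of the replication genes was 0.371 in controls and 0.332 in co-culture. In co-culture, 28 of the 37 genes were lower at 72 h in all 3 pairs of the same number, as were 27.4% of all genes. Gins1 had 10.8, 3.65 and 5.55 FPKM at 24 h and 3.15, 3.13 and 2.21 at 72 h, a log2 fold change of -0.99 (SE 0.38, adjusted p 0.876). Its values did not overlap, which held for 2 of the 37 genes, the other being Rfc4 (-0.68, SE 0.35), and for 7.66% of all genes with lower values. Prim2 had -0.62 (SE 0.30), with values that overlapped.

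Differences of the co-culture effect between models and between times were tested directly. At 72 h the effect in the inverse model minus that in the standard model had a median of 0.54 over 38 genes tested, with 36 above 0, where 41.2% of 14452 genes were, but 0 passed and 0 had an unadjusted p under 0.05 (limma), which 3.47% of all genes had. Tyms (0.87, SE 0.53), Pold1 (0.85, SE 0.60) and Fen1 (0.86, SE 0.62) had the smallest p-values, with an adjusted p of 0.997 for each. At 24 h the median was -0.30, with 2 of 38 above 0, where 40.2% of all genes were, and Rfc3 (-0.68, SE 0.43), Rfc4 (-0.69, SE 0.46) and Mcm10 (-0.84, SE 0.94) had the smallest p-values, with 0 passing and 0 at an unadjusted p under 0.05, where 1.26% of all genes were. In the inverse model, the effect at 72 h minus that at 24 h had a median of 0.52, with 36 of 38 genes above 0, where 39% of 13722 genes were. There, 11 of the 38 genes and 10.7% of all genes had an unadjusted p under 0.05, and 0 passed. The smallest adjusted p-values were those of Ccne2 (0.95, SE 0.26, adjusted p 0.254), Uhrf1 (1.03, SE 0.33, adjusted p 0.321) and Mcm5 (1.00, SE 0.35, adjusted p 0.356). In the standard model the same difference had a median of -0.31, with 1 of 38 above 0, where 35.5% of 13694 genes were, with 0 passing and 0 at an unadjusted p under 0.05, where 1.03% of all genes were. Gins1 (-1.32, SE 0.68), Rfc4 (-0.52, SE 0.54) and Cdt1 (-0.79, SE 0.95) had the smallest p-values there. These fits left out the pairing of the standard libraries by number. With the replicate block, 0 replication genes passed in each of these differences. Their smallest adjusted p (limma) between models at 72 h was then 0.398. Voom called 0 in each of these differences. So a call in inverse co-culture at 72 h and none in the other comparisons of co-culture with control does not show that the effect differed between models or times.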

How the data were processed

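RNA of PSC in 24 libraries was sequenced. Per the submitters' processing notes and the methods of the study, the authors aligned reads to GRCm38 with HISAT2 2.0.5, counted fragments per gene with featureCounts 1.5.0-p3 at default settings, which disregard strand, and deposited FPKM of 53801 genes. They called changed genes with DESeq2 1.20.0 from counts that were not used here. The annotation release is not given in the sources used here.

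The comparisons used limma 3.58.1, run in R 4.3.3 (moderated test with an intensity trend, two-sided) on log2(FPKM + 0.5), over genes that exceeded 1 FPKM in 3 or more libraries of the fit, with Benjamini-Hochberg adjustment over all genes tested. Fold changes on this scale understate those of low genes. With 3 against 3 libraries, an exact permutation test cannot go below 0.1 and is not given. Pairwise comparisons used 6 libraries, differences of effects the 12 of a model or all 24. Counted fragments were recovered from low FPKM with the mean transcript length of GENCODE M21 (53706 genes matched). Between 94.4% and 95.6% of values under 100 fragments were whole within 0.02 fragments. Fits were tested on simulated data.

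The 39 genes and all lists were chosen with earlier results of these data known. Genes named with values in each library are the gene with the highest mean of each role and, per comparison, the called genes or, with none called, those with the smallest p. Of other lists, the called genes with the largest changes are named. Values of further genes are given in the text where a count or range rests on them.

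Libraries of the same replicate number deviated together in the standard model, with correlations over genes of 0.48 to 0.82 in the comparisons with controls and 0.38 to 0.77 over time, so the numbers were taken to pair these libraries, and not in the inverse model, where the lowest was -0.17. Promoters are from RefSeq on GRCm38.p6. The alternatives tried were a pseudocount of 1, no filter, scaling by the median of gene ratios, the replicate number as a block, other libraries in the fit, voom on recovered fragments, and leaving out each library. Python 3.11.15, pandas 2.3.3 and matplotlib 3.10.9 were used for tables and plots.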

Additional observations from a re-analysis of the deposited data

How the results depend on the processing

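For inverse co-culture against control at 72 h, 6 of the replication genes passed, among 1678 of 13066 genes tested. The number was 2 with no filter, 10 with scaling by the median of gene ratios and 10 with voom on recovered fragments. Over all genes these settings called 888, 1401 and 2071. In a fit over all 24 libraries, which include the more widely spread standard model, 0 replication genes and 897 of all genes passed. A fit over the 12 libraries of the inverse model, added after the data were seen, gave 5, among 2384 of all genes. For inverse controls over time, 24 passed, and the number was 11 with no filter, 0 in the fit over all 24 libraries and 21 in the fit over the 12. Over all genes, these fits called 2516, 1425, 225 and 1791. The causes of these shifts were not tested. Leaving out 1 library at a time gave 0 to 6 genes in the former comparison and 11 to 27 in the latter, and 0 in each other comparison. Over all genes it gave 368 to 1637 in the former and 1243 to 2369 in the latter. No call changed its direction under these alternatives.

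With the replicate number as a block, 3 genes passed in inverse co-culture at 72 h and 22 in inverse controls over time, although the numbers did not pair the libraries of that model, and in the standard model, where they did, the block left 0 replication genes in each comparison. Over all genes, the block moved the number called from 0 to 157 in standard co-culture at 24 h, from 0 to 1 at 72 h, from 317 to 88 in inverse co-culture at 24 h, from 1678 to 902 at 72 h, from 1 to 0 in inverse co-culture over time and from 0 to 16 in the difference between models at 72 h.

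When 1 library was left out, medians of the standard model moved across 0 in co-culture against control and in controls over time. They ranged from -0.26 to 0.91 at 24 h, from -0.37 to 0.44 at 72 h and from -0.80 to 0.21 in controls over time. In standard co-culture over time they stayed below 0, between -1.07 and -0.16. In the inverse model they lay between 0.33 and 0.53 for co-culture at 72 h and between -0.90 and -0.57 for controls over time. For inverse co-culture over time they lay between -0.39 and -0.16. For inverse co-culture at 24 h they moved across 0, from -0.25 to 0.09. Without replicate 1 or without replicate 2 of the standard model, also added after the data were seen, 0 genes passed in each comparison that uses them. Depth limits the genes with few fragments, such as Fen1, E2f2, Gins1 and Cdc6.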
